A study of Mus musculus with 12 samples.

Results

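Nuclear receptors are the transcription factors through which steroid and thyroid hormones, retinoids, fatty acids and sterols act on genes. A list of 34 of their genes was taken from the 23042 genes measured in heart ventricles and in epididymal white adipose tissue (EWAT) of wild-type (WT) mice and of mice with a MED13 cardiac transgene (MED13cTg), and each gene of the list was found in both tissues under its own symbol. MED13 belongs to the kinase module of the Mediator complex, which links transcription factors bound to DNA with RNA polymerase, and cardiac MED13 is known from earlier work to restrain gene activation by nuclear receptors. The question was which receptors each tissue expresses, and whether their transcript levels differ between genotypes in the heart, which carries the active transgene, and in fat.

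All mice were male C57BL/6 littermates on normal chow, 6 weeks old per the labels, and tissue was taken in the late afternoon from animals fed ad libitum. WT and MED13cTg mice gave 3 ventricle and 3 EWAT libraries each, 12 in all. The transgene is cardiac by its label, its promoter and founder line are not given in the sources used here, and neither is whether a ventricle and an EWAT library of the same number came from the same mouse. Levels are in FPKM, the fragments of a gene scaled by its transcript length and by all mapped fragments, which allows levels of different genes to be compared, and each tissue was deposited as a table normalized on its own.

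Most nuclear receptors share a DNA-binding domain of zinc fingers and a pocket for a small ligand, and they exchange corepressors for coactivators when the ligand binds. The retinoid X receptors (RXRs) pair with the receptors for retinoic acid, fatty acids, oxysterols, bile acids and vitamin D, whereas steroid receptors bind DNA as pairs of their own kind. In heart muscle, PPARα and the estrogen-related receptors are known to drive genes of fatty acid oxidation and mitochondria. In white fat, PPARγ with an RXR partner is the master regulator of adipocyte differentiation.

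The transgene was visible in the heart. Med13 in ventricles was at 13.1, 10.6 and 11.5 FPKM for WT and at 263, 181 and 205 FPKM for MED13cTg, a difference of 4.08 on the log2(FPKM + 1) scale (SE 0.17, limma, adjusted p = 0.000281). In EWAT it was at 10.1 ± 0.765 FPKM in WT and 9.85 ± 1.75 FPKM in MED13cTg (SD, n = 3). The 8 ventricular muscle markers, among them Myl2 and Tnnt2, were above 0 in all 6 ventricle libraries, with summed levels of 63530 to 70700 FPKM in WT and 63350 to 92080 FPKM in MED13cTg. The 5 atrial markers summed to 447 to 743 FPKM in WT and 995 to 2443 FPKM in MED13cTg ventricles. Most of each sum was Nppa, and the part of these markers in the results was not tested. Spearman correlations between ventricle libraries across genes lay between 0.944 and 0.969. Absolute depth is unknown from FPKM, and library sizes against WT replicate 1 of the tissue were estimated from the lowest values at 0.925 to 1.03 in ventricles and 0.675 to 0.925 in the other EWAT libraries.

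The MED13cTg EWAT libraries of replicates 1 and 2 stood apart from the other 4 EWAT libraries. Replicate 1 had correlations of 0.350 to 0.494 with the other libraries, and replicate 2 had 0.350 to 0.852. The 8 mature adipocyte markers, all above 0 in every EWAT library, summed to 13330, 31810 and 21790 FPKM in WT and to 1288, 79010 and 17220 FPKM in MED13cTg replicates 1, 2 and 3. The 11 epididymis markers, also all above 0, summed to 50110 to 63360 FPKM in WT, so that WT tissue labelled as fat held epididymal transcripts, and to 7867, 161 and 48670 FPKM in MED13cTg. The 8 testis germ cell markers, none of them at 0 in any library, summed to 244 to 310 FPKM in WT and to 16880, 7.46 and 377 FPKM in MED13cTg. Leydig cell markers, of which 4 of 5 were above 0 in every library, summed to 16.1 to 35.8 FPKM in WT and to 1358, 25.4 and 22.4 FPKM in MED13cTg, and Sertoli cell markers, of which 3 of 4 were listed, to 0.526 to 0.761 FPKM and to 21.3, 1.46 and 0.388 FPKM. Replicate 1 thus carried the highest germ cell and Leydig sums, replicate 2 the highest adipocyte sum, and replicate 3 lay close to WT. The EWAT results below are given by library for this reason.

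Each tissue expressed its own set of receptors. In ventricles, 12 of the 34 had a mean below 1 FPKM over the 6 libraries, and in EWAT 10 did. Below 1 FPKM in both tissues were 6 receptors, namely Rorb, a receptor of retina and brain, Nr1h4, the bile acid receptor FXR, Nr1i3, the xenobiotic receptor CAR, Esr2, estrogen receptor β, Pgr, the progesterone receptor, and Nr5a2, a receptor of liver and ovary. Below 1 FPKM in ventricles alone were 6 more, Vdr, Hnf4a, Esr1, Nr5a1, Nr6a1 and Nr0b1. Below 1 FPKM in EWAT alone were 4, Rarb, Esrrb, Nr3c2 and Nr0b2. The remaining 18 were at or above 1 FPKM in both. Values of 2 different tables are set side by side here, with no test between tissues.

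The limit of 1 FPKM cut sharply in the heart and less so in fat. Nr6a1 at 0.842 FPKM was the receptor just under it in ventricles, and Nr2f1 at 2.29 FPKM was just over it. Pgr was listed at 0 in all 6 ventricle libraries, and 10 of the 12 receptors under the limit had no ventricle library at 1 FPKM. In EWAT, Nr3c2 at 0.9202 FPKM and Hnf4a at 1.005 FPKM stood on either side of the limit. Of the 24 receptors over it, 13 reached 1 FPKM in every EWAT library and 7 passed through 1 genotype alone. Rora, Vdr, Nr2c2, Nr5a1 and Nr0b1 passed only through MED13cTg, and Hnf4a and Esrrg only through WT. By the WT mean, 14 receptors were below 1 FPKM in EWAT, and without MED13cTg replicate 1 the same number was, as Rora, Vdr, Nr5a1 and Nr0b1 dropped under the limit.

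**Figure D1:**
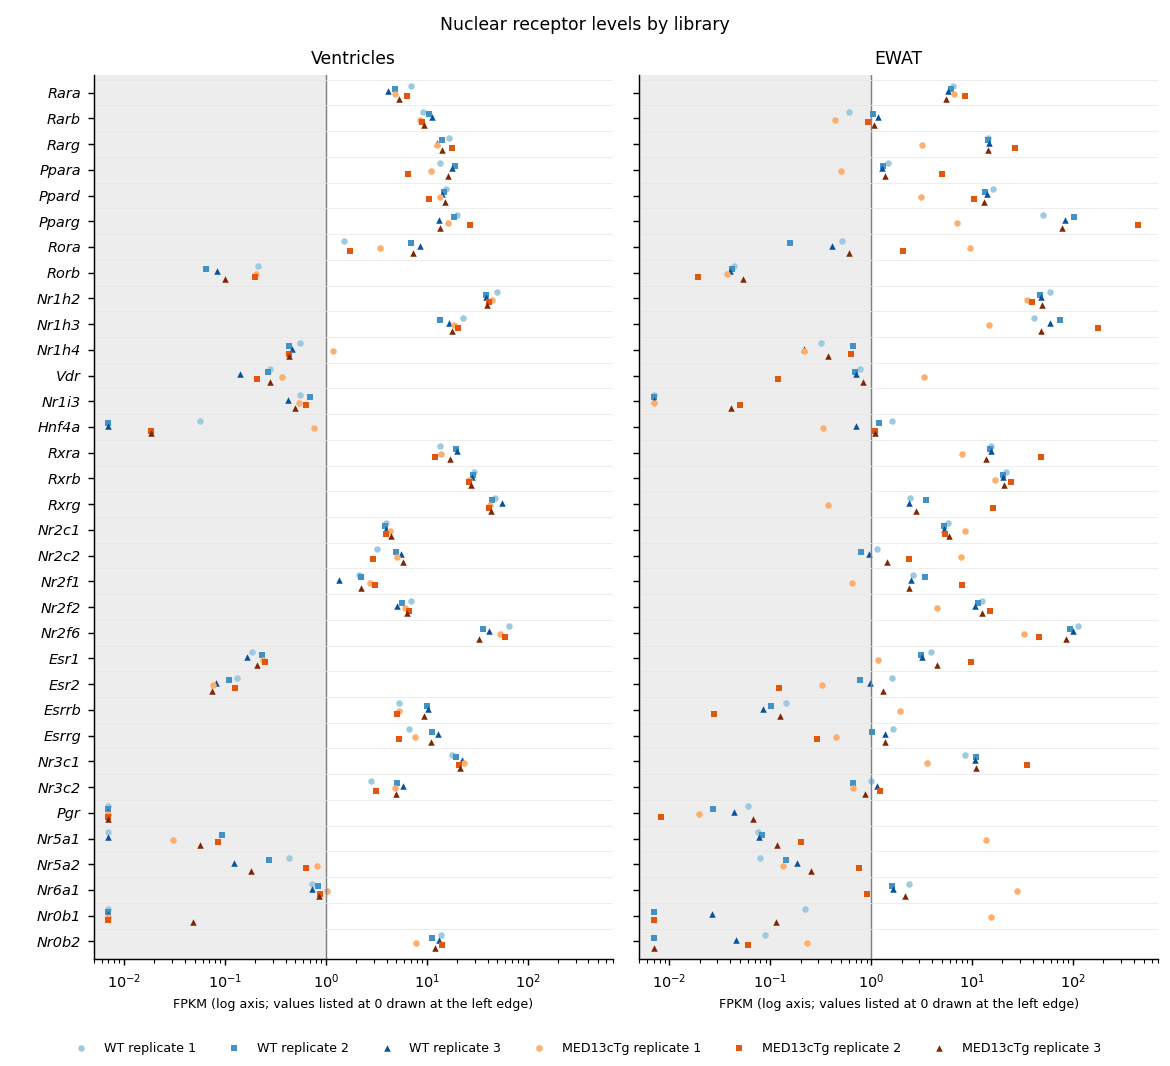
Level of each of the 34 receptors in each library, in FPKM on a log axis, for ventricles and EWAT, with the range below 1 FPKM shaded and values listed at 0 drawn at the left edge. In ventricles Rora has one of the wider spreads, from 1.497 to 8.53 FPKM, and in EWAT MED13cTg replicates 1 and 2 lie far from the other 4 libraries for receptors such as Nr5a1, Nr0b1, Nr6a1 and Pparg.

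No receptor passed the test between genotypes in ventricles. Of the 22 receptors with a mean of at least 1 FPKM, 0 had an adjusted p under 0.05 by limma and 0 had an unadjusted p under 0.05. Among all 12589 genes tested, 3 were higher in MED13cTg (0.0238%) and 4 were lower (0.0318%) at the adjusted threshold, and 1.69% and 3.03% were higher and lower at the unadjusted one. Differences between genotypes are given as MED13cTg minus WT on the log2(FPKM + 1) scale, which understates the change of genes with low values. The 9 receptors with a positive and the 13 with a negative difference lay between 0.35 for Nr2f1 and -0.62 for Ppara, with a median of -0.022 against -0.014 over all genes. Without overlap between genotypes were 4 of the 22 (18.2%, against 9.31% of all genes), Nr2c1 and Nr2f1 with higher values in MED13cTg (3.46% of all genes) and Rxrb and Rxrg with lower values (5.85% of all genes). The median standard error of a receptor was 0.18, against 0.15 over all genes.

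**Figure D2:**
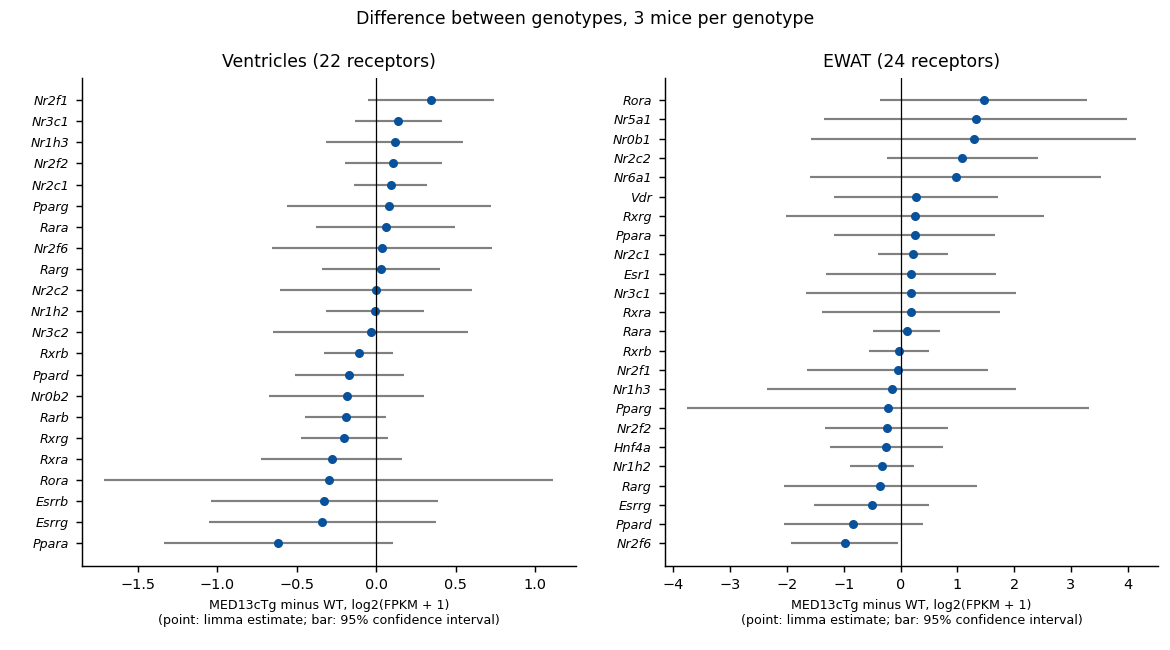
Difference between MED13cTg and WT for each receptor tested, in log2(FPKM + 1), as the limma estimate (point) with its 95% confidence interval (bar), for 22 receptors in ventricles and 24 in EWAT. The intervals have a median width of 0.87 in ventricles (up to 2.83, for Rora) and of 2.94 in EWAT (from 1.07 for Rxrb to 7.07 for Pparg), and the interval of Nr2f6 in EWAT, from -1.92 to -0.046, is the only one that does not reach 0.

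Among the retinoid receptors of the heart, the RXRs were the more abundant. Rxrg, the muscle-enriched RXR, was at 47.5, 44.3 and 55.2 FPKM in the WT mice against 41.9, 41.8 and 43.4 FPKM in the MED13cTg mice, with every MED13cTg library below every WT library and a difference of -0.20 (SE 0.12, adjusted p = 0.966 by limma). Rxrb, the broadly expressed RXR, was at 29.5, 28.95 and 28.2 FPKM among WT libraries and 26.5, 26.1 and 27.5 FPKM among MED13cTg libraries, again without overlap, and its difference of -0.11 (95% interval -0.33 to 0.10) was the more tightly bounded. Rxra, the RXR that heart development requires, was at 13.6, 19.3 and 19.97 FPKM across WT libraries and 13.8, 11.97 and 17.1 FPKM across MED13cTg libraries, and its groups overlapped. All 3 RXRs had negative differences, and none passed the test.

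The retinoic acid receptors (RARs) bind all-trans retinoic acid. Rarg was at 16.5, 14.02 and 12.8 FPKM in the WT mice against 12.5, 17.7 and 14.3 FPKM in the ventricles of MED13cTg mice. Rarb was at 9.26, 10.5 and 11.4 FPKM among WT libraries and 8.55, 8.93 and 9.29 FPKM among MED13cTg libraries, so that 3 of 3 MED13cTg libraries were below 2 of 3 WT libraries. Rara was at 7.04, 4.85 and 4.16 FPKM across WT libraries and 4.89, 6.33 and 5.36 FPKM across MED13cTg libraries. The groups overlapped for all 3, and the differences were 0.032, -0.19 and 0.059 for Rarg, Rarb and Rara.

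Promoter sequences of the receptors, taken from RefSeq on the build GRCm38.p6 and matched by symbol for 32 of the 34, were searched on both strands of the 250 bases before each start for the letters that receptors are known to bind. The core motif AGGTCA was in 9 of 52 receptor promoters (17.3%), from 8 genes, and in 14.0% of all 32851 promoters. The longer AAGGTCA, which contains it, was in 3 receptor promoters (Rxra, Rxrg and Nr6a1) and in 4.08% of all promoters. TCAAGGTCA, the element of the estrogen-related receptors, and the direct repeats AGGTCANAGGTCA, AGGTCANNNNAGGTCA and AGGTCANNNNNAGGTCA were in none of the 52, and in 0.387%, 0.0335%, 0.0152% and 0.00913% of all promoters. The retinoic acid element in the form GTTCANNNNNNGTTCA was in the promoter of Rarb alone among the receptors, and in 0.067% of all promoters. Rarb is known for this element, through which retinoic acid raises its own receptor. The promoters of Rarb and Rxra are shown because both genes were low in the same 3 ventricle libraries (WT replicate 1 and MED13cTg replicates 1 and 2) and hold a match, with the matches in capitals, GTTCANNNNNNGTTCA for Rarb and AGGTCA on either strand for Rxra. The match starts 52 bases before the start of Rarb. The 2 matches of Rxra start 87 and 48 bases before 1 of its 2 listed starts, and the promoter of the other start held no match. Of the 7 receptors low in those 3 libraries, 1 held the core motif and 1 the retinoic acid element. A match of letters is a description and not a measured binding site.
Rarb, chr14:16575477-16575726, minus strand, GRCm38.p6: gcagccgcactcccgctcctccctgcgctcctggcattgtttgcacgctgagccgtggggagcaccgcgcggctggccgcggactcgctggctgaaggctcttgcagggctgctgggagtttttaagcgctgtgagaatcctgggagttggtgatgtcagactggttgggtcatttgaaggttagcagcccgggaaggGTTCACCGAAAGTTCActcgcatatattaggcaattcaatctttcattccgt
Rxra, chr2:27709042-27709291, plus strand, GRCm38.p6: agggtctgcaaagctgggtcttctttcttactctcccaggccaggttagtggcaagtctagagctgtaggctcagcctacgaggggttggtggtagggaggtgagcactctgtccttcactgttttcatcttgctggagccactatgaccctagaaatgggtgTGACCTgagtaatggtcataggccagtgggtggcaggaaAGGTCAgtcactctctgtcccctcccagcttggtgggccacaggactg

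Of the receptors for fatty acids, the 3 PPARs were at similar levels in the heart. Ppara, which drives fatty acid oxidation, was at 13.6, 19.1 and 17.96 FPKM in the WT mice against 11.1, 6.45 and 16.2 FPKM in the MED13cTg mice, with the lowest value in MED13cTg replicate 2 and replicate 3 within the WT range. It had the most negative difference among the receptors, -0.62 (SE 0.30, adjusted p = 0.966 by limma), with a 95% interval of -1.33 to 0.10. Ppard, the most widely expressed PPAR, was at 15.4, 14.7 and 14.1 FPKM among WT libraries and 13.7, 10.5 and 15.3 FPKM among MED13cTg libraries. Pparg was at 19.8, 18.7 and 13.1 FPKM across WT libraries and 16.1, 26.8 and 13.4 FPKM across MED13cTg libraries, and MED13cTg replicate 2, the lowest library for Ppara, was here the highest. Adipocyte markers summed to 3107 to 3858 FPKM in WT and to 3414, 4365 and 2855 FPKM in MED13cTg ventricles, with their highest value in the same replicate 2. Nearly all of each sum was Fabp4, at 2770 to 4261 FPKM, whereas Adipoq was at 5.57 to 10.9 FPKM. The part of these markers in the level of Pparg was not tested.

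The liver X receptors (LXRs) sense oxysterols. Nr1h2, or LXRβ, was at 49.3, 38.99 and 38.9 FPKM in the WT mice against 44.6, 41.6 and 39.6 FPKM in the MED13cTg mice. Nr1h3, or LXRα, was at 22.6, 13.6 and 16.7 FPKM among WT libraries and 18.7, 20.3 and 17.7 FPKM among MED13cTg libraries. Groups overlapped for both, and differences were -0.0087 and 0.12. The bile acid receptor Nr1h4 had a mean of 0.583 FPKM, and only MED13cTg replicate 1, at 1.18 FPKM, was above 1.

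The estrogen-related receptors Esrrb and Esrrg, orphan receptors of mitochondrial genes, varied together among ventricle libraries. Esrrg was at 6.68, 11.4 and 12.99 FPKM across WT libraries and 7.603, 5.35 and 11.03 FPKM across MED13cTg libraries. Esrrb was at 5.31, 9.98 and 10.4 FPKM in the WT mice against 5.33, 5.03 and 9.48 FPKM in the MED13cTg mice. For both, WT replicate 1 and MED13cTg replicates 1 and 2 were low and the other 3 libraries high, and the differences between genotypes were -0.34 and -0.33 (SE 0.30 for both, adjusted p = 0.966 by limma).

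The same 3 libraries were low for 7 of the 22 receptors without overlap, against 17.1% of all genes, and the 7 (31.8%) were Esrrb, Esrrg, Nr3c2, Ppara, Rarb, Rora and Rxra. Rora, a receptor of the circadian clock, had the widest spread, from 1.497, 3.47 and 1.73 FPKM in WT replicate 1 and MED13cTg replicates 1 and 2 to 6.96, 8.53 and 7.35 FPKM in WT replicates 2 and 3 and MED13cTg replicate 3. Nr3c2, the mineralocorticoid receptor, was at 2.79, 4.901 and 3.13 FPKM in the first set and 5.12, 5.79 and 5.01 FPKM in the second. High in the first set without overlap were 3 receptors (13.6%, against 23.1% of all genes), Nr1h2, Nr1h3 and Nr2f6. The split follows the correlations across all genes, which were 0.959 to 0.969 within the 2 sets and at most 0.957 between them. It was found in the data and is given by no label, and since its low side holds 1 WT and 2 MED13cTg libraries it is in part confounded with genotype. Within the 2 sets Ppara differed between genotypes by -0.63 and -0.18, and with the set as a covariate by -0.40 (SE 0.21, adjusted p = 0.731 by limma). For Esrrb and Esrrg the covariate moved the differences to -0.063 and -0.093, and for Rora to 0.21. No receptor passed the test with the covariate, at a lowest adjusted p of 0.698.

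**Figure D3:**
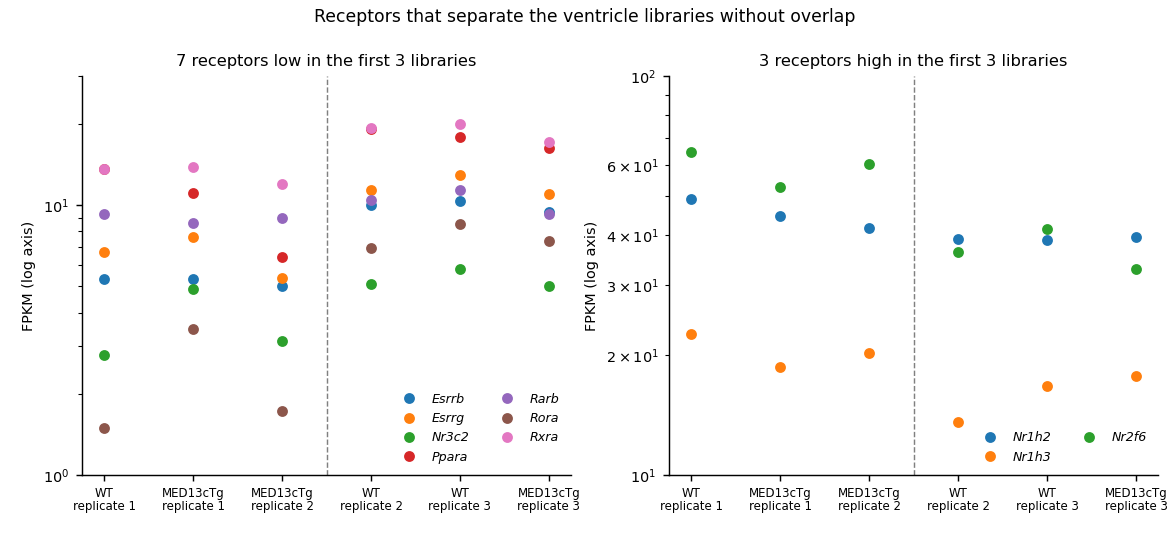
Level in FPKM (log axis) of the 7 receptors that were lower and the 3 that were higher, without overlap, in WT replicate 1 and MED13cTg replicates 1 and 2 (left of the dashed line) than in the other 3 ventricle libraries. WT and MED13cTg libraries lie on both sides of the line, and Rora spans 1.497 to 8.53 FPKM.

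Among the NR2 orphan receptors, Nr2f6 was the highest in the heart. It was at 64.8, 36.2 and 41.3 FPKM among WT libraries and 52.8, 60.3 and 32.9 FPKM among MED13cTg ventricle libraries, with a difference of 0.036 (95% interval -0.66 to 0.73). Nr2f2, or COUP-TFII, which is needed for atrial and venous identity, was at 7.04, 5.63 and 5.09 FPKM across WT libraries and 6.08, 6.73 and 6.44 FPKM across MED13cTg libraries. Nr2f1, or COUP-TFI, was at 2.14, 2.21 and 1.36 FPKM in the WT mice against 2.72, 3.04 and 2.26 FPKM in the MED13cTg mice, where every library exceeded every WT library, and it had the smallest p of the receptors (difference 0.35, SE 0.17, adjusted p = 0.966 by limma). The summed atrial markers, mostly Nppa, were also higher in all 3 MED13cTg libraries (from 995 FPKM) than in WT (up to 743 FPKM). Of these markers, Nppa alone was above every WT library in all 3, at 892, 1773 and 1088 FPKM. Myl7 was at 45.6, 321.5 and 37.4 FPKM in MED13cTg, against 20.9 to 63.5 FPKM in WT. Like Myl4, it exceeded every WT library in replicate 2 only. The part of these markers in the level of Nr2f1 was not tested. Nr2c1 was at 3.92, 3.87 and 3.95 FPKM among WT libraries and 4.298, 3.95 and 4.46 FPKM among MED13cTg libraries, without overlap, although the nearest libraries were 3.950 FPKM in WT and 3.952 FPKM in MED13cTg. Its paralogue Nr2c2, at 3.18, 4.97 and 5.52 FPKM across WT libraries and 5.05, 2.94 and 5.797 FPKM across MED13cTg libraries, had a difference of -0.0016.

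Of the steroid receptors, 2 were expressed in ventricles. Nr3c1, the glucocorticoid receptor, was at 17.96, 19.4 and 22.2 FPKM in the WT mice against 23.5, 20.8 and 21.2 FPKM in the MED13cTg mice, with a difference of 0.14 and a 95% interval of -0.14 to 0.41. Nr3c2 (values above) differed by -0.035. Esr1 and Esr2 had means of 0.214 and 0.0997 FPKM. Nr0b2, the corepressor SHP that lacks a DNA-binding domain, was at 13.8, 11.2 and 13.3 FPKM among WT libraries and 7.89, 14.1 and 12 FPKM among MED13cTg libraries, with 7.89 FPKM in replicate 1 as the only value under the WT range. Nr6a1 was under the limit and so was not tested, at 0.726, 0.838 and 0.727 FPKM across WT libraries and 1.03, 0.878 and 0.852 FPKM across MED13cTg libraries.

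Receptors under the limit in ventricles kept low values in both genotypes. Nr1i3 lay between 0.418 and 0.693 FPKM, Nr5a2 between 0.123 and 0.825 FPKM, Vdr between 0.142 and 0.366 FPKM and Rorb between 0.0655 and 0.214 FPKM over the 6 libraries, with overlapping groups for all 4. Hnf4a was at 0.771 FPKM in MED13cTg replicate 1, at most 0.057 FPKM in the others and listed at 0 in 2 of them. Nr5a1 reached 0.0929 FPKM and was listed at 0 in 2 libraries, and Nr0b1 was listed at 0 in 5 libraries and at 0.0486 FPKM in MED13cTg replicate 3.

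No receptor passed the test in EWAT either, where the spread among MED13cTg libraries was wide. Of the 24 receptors tested, 0 had an adjusted p under 0.05 by limma and 1, Nr2f6, had an unadjusted p under 0.05. Among all 14967 genes tested, 0 were higher (0%) and 2 lower (0.0134%) at the adjusted threshold, and 0.140% and 1.11% at the unadjusted one. Differences ran from -0.98 for Nr2f6 to 1.47 for Rora, with 13 positive, 11 negative and a median of 0.14 against 0.012 over all genes. The median standard error of a receptor was 0.59, against 0.45 over all genes and 0.18 for receptors in ventricles. Without overlap were 5 of the 24 (20.8%, against 12.7% of all genes), with Rora, Nr2c2 and Nr5a1 higher (4.88% of all genes) and Ppard and Nr2f6 lower (7.80% of all genes) in MED13cTg. Rora, Nr2c2 and Nr5a1 had WT means below 1 FPKM and entered the test only through their MED13cTg values, as did Vdr and Nr0b1, so these counts and the median are no evidence of a direction. In whole tissue, fewer cells of a type and less RNA per cell cannot be told apart.

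The MED13cTg libraries of EWAT differed widely from each other. MED13cTg replicate 1 was the highest or the lowest library for 22 of the 24 receptors (91.7%, against 77.4% of all genes), and 16 lay more than 1 log2 unit from the WT mean (66.7%, against 53% of all genes). Replicate 2 was the highest or lowest for 15 receptors (62.5%, against 59.3%), and 10 lay more than 1 log2 unit away (41.7%, against 25.7%). Replicate 3 had 0 receptors that far from WT, with deviations between -0.25 for Nr2f6 and 0.33 for Esr1. By a rule of 3-fold above every other library and at least 1 FPKM, 12 receptors stood apart in 1 EWAT library, 7 of them in replicate 1 (Rora, Vdr, Nr2c2, Esrrb, Nr5a1, Nr6a1, Nr0b1) and 5 in replicate 2 (Ppara, Pparg, Rxra, Rxrg, Nr3c1), and in ventricles 0 did. Of the 28 receptors that reached 1 FPKM in any EWAT library the 12 were 42.9%, against 25.8% of all 16470 such genes, with 25% against 23.2% for replicate 1 and 17.9% against 2% for replicate 2. The summed level of all 34 receptors was 385, 437 and 405 FPKM in the WT mice against 229, 930 and 379 FPKM in the MED13cTg mice. With both replicates left out, 20 receptors could be tested and 0 passed, at a lowest adjusted p of 0.999 by limma, where the remaining library was assumed to vary as WT did.

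**Figure D4:**
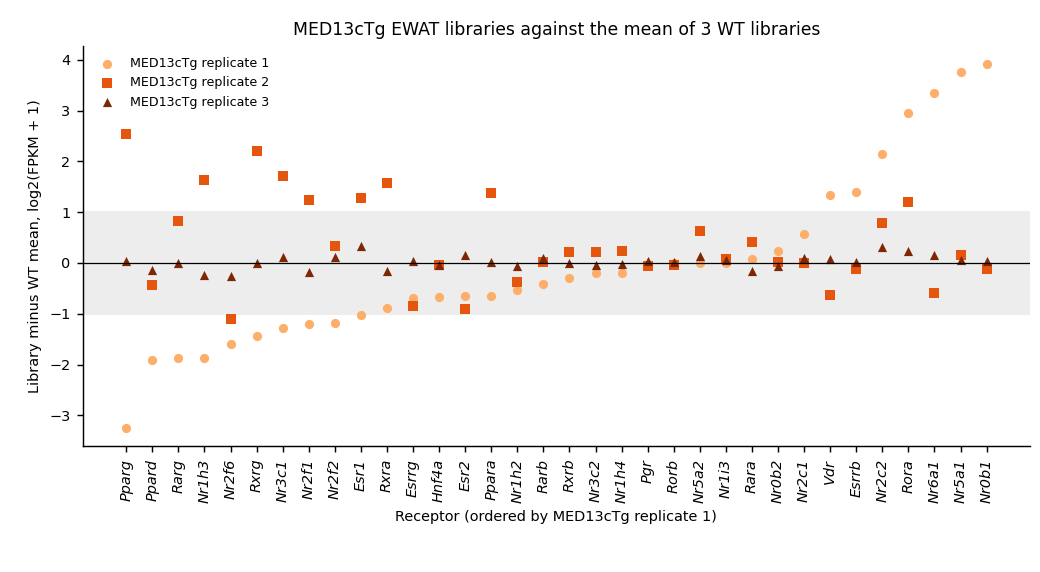
Deviation of each MED13cTg EWAT library from the mean of the 3 WT EWAT libraries, in log2(FPKM + 1), for all 34 receptors ordered by replicate 1, with the range within 1 unit shaded. Replicate 1 runs from -3.25 for Pparg to 3.92 for Nr0b1, replicate 2 lies on the opposite side for Pparg, and replicate 3 stays between -0.25 and 0.33.

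Pparg had the highest mean of the receptors in EWAT, 127.6 FPKM, to which MED13cTg replicate 2 gave the most. It was at 50.3, 103 and 83.3 FPKM among WT libraries and 7.09, 444 and 77.9 FPKM among MED13cTg libraries, so that replicate 1 was below and replicate 2 above every WT library, and the difference of -0.22 had a 95% interval of -3.76 to 3.31. Adipocyte markers had the same order, at 1288 and 79010 FPKM in replicates 1 and 2 against 13330 to 31810 FPKM in WT, and their part in this result was not tested. Ppara, at 1.48, 1.3 and 1.29 FPKM across WT libraries and 0.5002, 5.08 and 1.38 FPKM across MED13cTg libraries, shared the pattern. Ppard, at 16.04, 13.5 and 13.99 FPKM in the WT mice against 3.11, 10.4 and 12.98 FPKM in the MED13cTg mice, was lower in every MED13cTg library, with a difference of -0.83 (SE 0.49, adjusted p = 0.738 by limma). In replicate 3 the gap was small, at 12.98 FPKM against a lowest WT value of 13.5 FPKM.

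The partners and the sterol sensors of fat followed Pparg in part. Rxra was at 15.4, 15.2 and 15.6 FPKM among WT libraries and 7.87, 47.9 and 13.6 FPKM among MED13cTg libraries. Rxrg was at 2.44, 3.47 and 2.38 FPKM across WT libraries and 0.378, 16.2 and 2.75 FPKM across MED13cTg libraries. For both, replicate 1 was the lowest and replicate 2 the highest of the 6 libraries, whereas Rxrb, at 21.8, 20.2 and 20.1 FPKM in the WT mice against 16.7, 24.3 and 20.6 FPKM in the MED13cTg mice, varied little, with a difference of -0.027 and a 95% interval of -0.56 to 0.51. Nr1h3 was at 41.4, 75.1 and 58.7 FPKM among WT libraries and 14.8, 178 and 48.1 FPKM among MED13cTg libraries. Nr1h2 was at 58.5, 47.4 and 48.2 FPKM across WT libraries and 34.9, 39.2 and 48.8 FPKM across MED13cTg libraries. The 2 LXRs thus differed in spread, as Nr1h3 ran from 14.8 to 178 FPKM among MED13cTg libraries and Nr1h2 from 34.9 to 48.8 FPKM.

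Among the RARs of fat, Rarg was the highest. It was at 14.5, 14.5 and 14.6 FPKM in WT, with an SD of 0.070 FPKM, and at 3.23, 26.4 and 14.5 FPKM in MED13cTg. Rara was at 6.54, 6.17 and 5.81 FPKM in the WT mice against 6.59, 8.503 and 5.46 FPKM in the MED13cTg mice and was the RAR with the narrowest spread among MED13cTg libraries. Rarb, expressed in ventricles, was below the limit in EWAT with a mean of 0.874 FPKM.

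Steroid receptors of EWAT included Nr3c1 and Esr1. Nr3c1 was at 8.43, 10.95 and 10.8 FPKM among WT libraries and 3.55, 35.1 and 11 FPKM among MED13cTg libraries. Esr1, estrogen receptor α, was at 3.91, 3.15 and 3.21 FPKM across WT libraries and 1.16, 9.71 and 4.53 FPKM across MED13cTg libraries. Both were lowest in replicate 1 and highest in replicate 2, and the differences of 0.19 and 0.19 had standard errors of 0.75 and 0.61. Esr2, under the limit with a mean of 0.855 FPKM although its WT mean was 1.12 FPKM, was at 1.62, 0.773 and 0.97 FPKM in the WT mice against 0.325, 0.124 and 1.32 FPKM in the MED13cTg mice.

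Nr2f6 was the most abundant receptor of WT EWAT and came nearest to the threshold. It was at 111, 93.04 and 98.9 FPKM among WT libraries and 32.7, 46.4 and 84.4 FPKM among MED13cTg libraries, all of the latter below all of the former. The difference was -0.98 (SE 0.38, adjusted p = 0.738 by limma), and when each library was left out in turn it lay between -1.35 and -0.68 with adjusted p from 0.126 to 0.96. Replicate 3, the library close to WT, lay 0.25 below the WT mean on this scale. The summed epididymis markers were also lower in all 3 MED13cTg libraries, by most in replicates 1 and 2. In replicate 3 single markers went both ways. There Lcn8, at 18560 FPKM, was below every WT library, Lcn5, at 9609 FPKM, was within the WT range, and Rnase9, at 1389 FPKM, was above every WT library. The part of these markers in this result was not tested.

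Of the other NR2 receptors in EWAT, Nr2f2 was at 12.7, 11.5 and 10.7 FPKM across WT libraries and 4.53, 14.9 and 12.6 FPKM across MED13cTg libraries. Nr2f1 was at 2.57, 3.43 and 2.49 FPKM in the WT mice against 0.651, 7.995 and 2.37 FPKM in the MED13cTg mice. Both were lowest in replicate 1 and highest in replicate 2. Nr2c2, also known as TR4, was at 1.16, 0.793 and 0.947 FPKM among WT libraries and 7.701, 2.38 and 1.44 FPKM among MED13cTg libraries, with every MED13cTg library above every WT library and a difference of 1.08 (SE 0.54, adjusted p = 0.738 by limma). Nr2c1, or TR2, was at 5.79, 5.28 and 5.32 FPKM across WT libraries and 8.56, 5.44 and 5.89 FPKM across MED13cTg libraries. Hnf4a, a receptor of liver and gut epithelium, was at 1.62, 1.196 and 0.701 FPKM in the WT mice against 0.337, 1.09 and 1.08 FPKM in the MED13cTg mice, and its values lay on both sides of the limit in both groups.

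Nearest under the limit in EWAT was Nr3c2, between 0.663 and 1.21 FPKM over the 6 libraries, and Rarb lay between 0.441 and 1.17 FPKM. Nr1h4 lay between 0.215 and 0.664 FPKM, and Nr5a2 between 0.0789 and 0.75 FPKM with its highest value in MED13cTg replicate 2. Pgr, at 0.00819 to 0.068 FPKM, and Rorb, at 0.0192 to 0.0532 FPKM, were close to 0 in every library. Nr1i3 was listed at 0 in 4 libraries and Nr0b2, with a mean of 12.04 FPKM in ventricles, in 2, with no value above 0.0496 and 0.232 FPKM, respectively.

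Nr6a1, Nr5a1 and Nr0b1 were far higher in MED13cTg replicate 1 than in any other EWAT library. Nr6a1, the germ cell nuclear factor, was at 2.36, 1.62 and 1.66 FPKM among WT libraries and 28.1, 0.908 and 2.18 FPKM among MED13cTg libraries, so that replicate 1 was 11.9-fold above the next library. Nr5a1, the steroidogenic factor of adrenal and gonad, was at 0.0755, 0.0824 and 0.07697 FPKM across WT libraries and 13.7, 0.1996 and 0.116 FPKM across MED13cTg libraries, and replicate 1 was 68.5-fold above the next. Nr0b1, or DAX-1, a repressor of steroidogenic genes without a DNA-binding domain of the usual kind, was at 0.222, 0 and 0.0266 FPKM in the WT mice against 15.3, 0 and 0.114 FPKM in the MED13cTg mice, with replicate 1 at 68.9-fold above the next. All 3 were thus set by 1 library, and their differences of 0.97, 1.32 and 1.28 had standard errors above 1. Germ cell markers at 16880 FPKM and Leydig cell markers at 1358 FPKM were highest in the same library, and their part in these values was not tested. In the mm9 coordinates of the files Nr5a1 (chr2:38548179-38570062) and Nr6a1 (chr2:38578893-38781981) are neighbours on chromosome 2, and how reads were counted between neighbouring genes is not given in the sources used here.

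The promoters of Nr6a1 and Nr0b1 are shown because they belong to the receptors that were high in that library and hold the core motif, with AGGTCA on either strand in capitals. The 2 matches of Nr6a1 start 91 and 45 bases before 1 of its 2 listed starts, and the promoter of the other start held no match. The 1 match of Nr0b1 starts 126 bases before its start.
Nr6a1, chr2:38784516-38784765, minus strand, GRCm38.p6: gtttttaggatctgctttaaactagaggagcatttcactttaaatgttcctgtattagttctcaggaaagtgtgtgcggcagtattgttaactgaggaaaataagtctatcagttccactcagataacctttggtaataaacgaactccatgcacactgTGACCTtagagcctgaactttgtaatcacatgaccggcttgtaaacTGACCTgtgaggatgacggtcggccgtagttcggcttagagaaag
Nr0b1, chrX:86191525-86191774, plus strand, GRCm38.p6: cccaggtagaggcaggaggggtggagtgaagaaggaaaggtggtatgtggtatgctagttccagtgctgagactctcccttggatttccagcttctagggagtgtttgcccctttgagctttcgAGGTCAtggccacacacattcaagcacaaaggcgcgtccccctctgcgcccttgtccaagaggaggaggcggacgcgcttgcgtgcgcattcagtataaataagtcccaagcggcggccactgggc

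Rora was at 0.511, 0.157 and 0.411 FPKM in WT EWAT and 9.51, 2.09 and 0.5998 FPKM in MED13cTg, with no overlap between groups. Its difference of 1.47 (SE 0.74, adjusted p = 0.738 by limma) was the most positive of the receptors tested, among which it was counted only through its MED13cTg values. Vdr, the vitamin D receptor, was at 0.767, 0.697 and 0.712 FPKM among WT libraries and 3.36, 0.119 and 0.833 FPKM among MED13cTg libraries. Esrrb, under the limit by its mean, was at 0.144, 0.102 and 0.0846 FPKM across WT libraries and 1.93, 0.0274 and 0.125 FPKM across MED13cTg libraries. In each of these 3 replicate 1 held the highest value by at least 4.04-fold, and only for Rora was replicate 2 also above every WT library. Esrrg, at 1.66, 1.02 and 1.37 FPKM in the WT mice against 0.444, 0.291 and 1.39 FPKM in the MED13cTg mice, was low in replicates 1 and 2 and within the WT range in replicate 3.

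The effect of genotype on a receptor was not shown to differ between tissues. A fit over all 12 libraries took each genotype difference within its own table. For the difference between EWAT and ventricle, 0 of the 18 receptors with a mean of at least 1 FPKM in both passed by limma. Of these, 0 had an unadjusted p under 0.05. Rora and Nr2c2 reached that mean in EWAT only through their MED13cTg values, and Esrrg only through its WT values. Among the 11936 genes tested, 0 were higher (0%) and 3 lower (0.0251%) in their EWAT than in their ventricle difference, and 1.11% and 2.56% were at the unadjusted threshold. Nr2f6 had the smallest p (-1.02, SE 0.51, adjusted p = 0.765), and the adjusted p of the others reached 0.986.

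By the mean share in WT, the leading member of a family differed between heart and fat for the RXRs and the LXRs, the latter by a margin within the SD in EWAT. The PPARs, the RARs and the COUP-TF family had the same leader in both tissues, with Pparg barely ahead of Ppara in the heart. Shares of a family's summed FPKM are free of the scale of each table. In ventricles Ppara, Ppard and Pparg held 34.7% ± 6.08, 30.3% ± 1.92 and 35.1% ± 5.75 of the PPAR sum in WT (SD, n = 3), and 26% ± 10.7, 30.5% ± 5.65 and 43.5% ± 16.1 in MED13cTg. In EWAT Pparg held 82% ± 6.99 in WT, and 66.3%, 96.6% and 84.4% in MED13cTg replicates 1, 2 and 3. Of the RXR sum Rxrg held 51.2% ± 2.95 in WT ventricles and 7.12% ± 1.57 in WT EWAT, where Rxrb led with 53.3% ± 1.54. In MED13cTg ventricles Rxrg held 50.9% ± 1.52. Of the LXR sum Nr1h2 held 70.9% ± 2.92 in WT and 68.9% ± 1.59 in MED13cTg ventricles. In WT EWAT it held 47.4% ± 10.2, and 70.1%, 18% and 50.4% in the MED13cTg libraries. Rarg led the RARs in WT of both tissues, with 47.7% ± 2.62 in ventricles and 67.1% ± 0.475 in EWAT, and MED13cTg EWAT replicate 1 was the only library in which Rara led, with 64.2%. Nr2f6 held 85.4% ± 2.86 of the COUP-TF family in WT ventricles and 87.5% ± 1.14 in WT EWAT. In MED13cTg EWAT replicate 2 it held 66.9%, below the other 5 EWAT libraries.

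**Figure D5:**
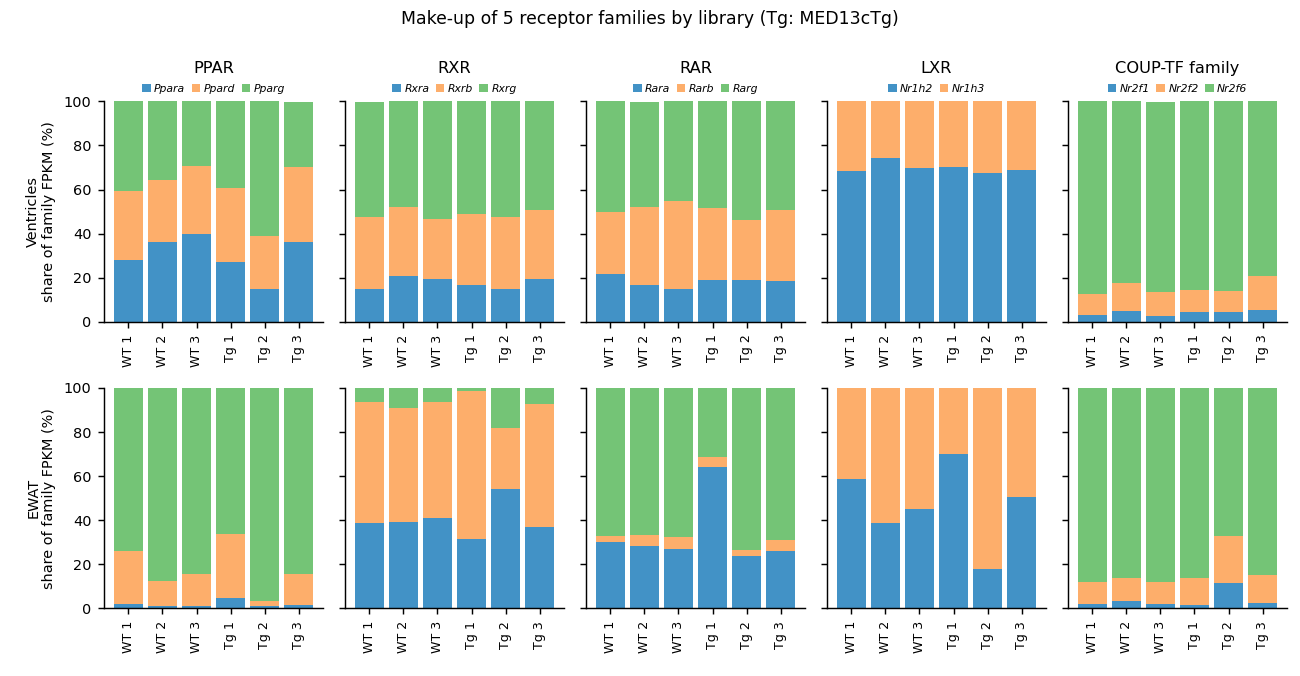
Share of each member in the summed FPKM of its family, in percent, for 5 families in each library of ventricles (upper row) and EWAT (lower row), where Tg stands for MED13cTg. The make-up is similar in all ventricle libraries apart from a 61.3% share of Pparg in MED13cTg replicate 2, and in EWAT it departs most from WT in MED13cTg replicates 1 and 2.

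Genes that work with the receptors were examined as 7 lists in each tissue, and 0 genes of any list passed the adjusted threshold by limma in either. Of 15 coregulators, which include the corepressor Ncor1 and the coactivators of the Ncoa family, 14 were lower and 1 higher in MED13cTg ventricles, with a median difference of -0.11 against -0.014 over all genes and no value beyond -0.28. Hdac3, Gps2 and Ncor1, the most abundant of them, had differences of -0.013, -0.13 and -0.11. Several coregulators followed the split of the ventricle libraries, which is in part confounded with genotype. Ncor1 was at 26.1, 28.6 and 24.8 FPKM in WT replicate 1 and MED13cTg replicates 1 and 2. In WT replicates 2 and 3 and MED13cTg replicate 3 it was at 31.9, 32.4 and 30.1 FPKM. The count in ventricles is thus no evidence of a direction by genotype. In EWAT 13 of the 15 were higher and 2 lower, with a median of 0.29 against 0.012 over all genes. Without overlap there, 4 of the 15 were higher (4.88% of all genes), Gps2 among them, and 1 was lower (7.80% of all genes). Gps2, a subunit of the corepressor complex, was at 30.1, 29.3 and 28.8 FPKM among WT libraries and 87.8, 30.3 and 32.1 FPKM among MED13cTg EWAT libraries, without overlap. Hdac3, at 89.0, 96.8 and 101 FPKM in the WT mice against 65.5, 76.4 and 79.2 FPKM in the MED13cTg mice, was the coregulator without overlap in the other direction.

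Genes that supply ligands gave the smallest p of these lists in the heart. Hsd11b1, the enzyme that regenerates active glucocorticoid, was at 14.9, 18.6 and 17.2 FPKM among WT libraries and 10.6, 10.8 and 12.4 FPKM among MED13cTg ventricle libraries. The groups did not overlap, the difference was -0.54 (SE 0.12), and its adjusted p by limma, 0.8, missed the threshold. H6pd, which feeds it with cofactor, and Cyp27a1, an oxysterol-forming enzyme, were the only other genes of this list of 9 that were tested in ventricles, with differences of -0.32 and -0.19. In EWAT Hsd11b1 was at 31.7, 84.8 and 52.1 FPKM across WT libraries and 4.998, 239 and 48.5 FPKM across MED13cTg libraries, lowest in replicate 1 and highest in replicate 2 as Pparg was. Of 14 genes of retinoid handling, 9 were tested in ventricles, with 4 higher and 5 lower, and 12 in EWAT, with 5 higher and 7 lower. Without overlap in ventricles, 3 of the 9 were lower (5.85% of all genes) and 0 higher (3.46% of all genes). Among these 3, Lrat entered the test only through its WT values. Fabp5, which carries retinoic acid and fatty acids, was the most abundant in ventricles and differed by 0.48 with an SE of 0.37.

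Known targets of the receptors did not pass the test either. Of 17 PPARα targets, 14 were tested in ventricles, with 4 higher, 10 lower and a median of -0.074, and 15 in EWAT, with 5 higher, 10 lower and a median of -0.24. Pdk4, which restrains glucose oxidation, was at 312, 770.1 and 638 FPKM among WT libraries and 419, 323 and 875 FPKM among MED13cTg ventricle libraries, low in the same 3 libraries as Ppara. Fabp3, the fatty acid binding protein of the heart, was at 8888, 8932 and 10330 FPKM across WT libraries and 10610, 12680 and 10530 FPKM across MED13cTg libraries, without overlap, with a difference of 0.26 (SE 0.19). Acadm, an enzyme of fatty acid oxidation, differed by -0.33 (SE 0.20). Of 14 PPARγ targets, 13 had a median of 0.011 in ventricles, with 7 higher and 6 lower, and all 14 had a median of -0.37 in EWAT, with 4 higher and 10 lower. Adipoq, the adipocyte hormone adiponectin, was at 560.1, 1330 and 877 FPKM in the WT mice against 76.2, 3609 and 688 FPKM in the EWAT of MED13cTg mice. Its difference was -0.59, yet its mean FPKM in MED13cTg was 1.58-fold that in WT. Replicate 1 lay below and replicate 2 above every WT library. The EWAT counts and medians of PPARα and PPARγ targets are thus no evidence of a direction. Over all genes the median was -0.014 in ventricles and 0.012 in EWAT. Of 10 LXR targets, 8 were tested in each tissue, with 3 higher and 5 lower in ventricles and 2 higher and 6 lower in EWAT.

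Glucocorticoid receptor targets were mostly lower in both tissues, and none passed the test. Of the 13, 10 were lower and 3 higher in ventricles, with a median of -0.15 against -0.014 over all genes. In EWAT 11 were lower and 2 higher, with a median of -0.39 against 0.012 over all genes. Without overlap in ventricles, 2 of the 13 were lower (5.85% of all genes), Fkbp5 and Tsc22d3, and 0 higher (3.46% of all genes). Tsc22d3, a glucocorticoid-induced leucine zipper protein, was at 197, 166 and 168 FPKM among WT libraries and 135, 111 and 165 FPKM among MED13cTg ventricle libraries, with a difference of -0.38 (SE 0.17, adjusted p = 0.966 by limma). The metallothioneins Mt1 and Mt2, the most abundant of this list in ventricles, had overlapping groups and differences of 0.0056 and 0.48, with Mt2 at 465, 494 and 447 FPKM for WT and 698, 411 and 964 FPKM for MED13cTg. In EWAT Fkbp5 was at 142, 156 and 164 FPKM across WT libraries and 36.2, 51.3 and 127 FPKM across MED13cTg libraries. The difference there was -1.30 (SE 0.48, adjusted p = 0.738 by limma). Mt1 was at 1409, 1487 and 1713 FPKM in the WT mice against 876, 955 and 1079 FPKM in the EWAT of MED13cTg mice, and Mt2 at 742, 853 and 817 FPKM and 558, 237 and 527 FPKM. For these 3 of the 13 genes every MED13cTg EWAT library was below every WT library, as for 7.80% of all genes. Klf9, a transcription factor chosen here after its values were seen, was without overlap in the other direction, with 10.2, 10.3 and 10.2 FPKM for WT and 15.3, 42.8 and 10.95 FPKM for MED13cTg.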

How the data were processed

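RNA from heart ventricles and EWAT was made into TruSeq libraries from 1 ug of total RNA, per the labels. The authors aligned the reads with TopHat (genome build mm9) and estimated expression with Cufflinks at default settings, and versions are not given in the sources used here. They deposited FPKM values, 1 table per tissue, with 23042 genes each. FPKM corrects for transcript length and mapped fragments but not for the mix of cells in a sample. Each table also has 3 columns of the authors' means and folds and 341 entries that join several symbols, and the EWAT table has 1 unnamed column. None of these columns was used, and no receptor was in a joined entry or had more than 1 row. An FPKM of 0 is given as listed at 0.

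Groups and replicate numbers came from the sample labels. Genotypes were compared with limma 3.58.1 under R 4.3.3, by lmFit and eBayes with trend on log2(FPKM + 1), for genes whose mean reached 1 FPKM in the fit, two-sided, with Benjamini-Hochberg adjustment over all genes tested and a threshold of 0.05, within each tissue and as an interaction of genotype and tissue over 12 libraries. Python 3.11.15, numpy 2.4.6, pandas 2.3.3 and matplotlib 3.10.9 were used for the rest. Relative depth was taken from genes below 0.15 FPKM, and the precision of low values is limited by it. Nothing beyond the labels says how independent the 3 mice of a group were, so p-values measure the spread between these samples.

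The 34 members, the other gene lists and the tests were chosen with earlier results of these data known. All members are reported in both tissues, in full where the mean was at least 1 FPKM or 1 library stood 3-fold above the others at 1 FPKM or more. Of each pathway list, the 3 genes of highest mean and any gene past the threshold were eligible to be named, as was Med13. Some genes of these lists are not reported here. Deviations of same-numbered EWAT libraries of the 2 genotypes from their group means had correlations of 0.347, 0.304 and 0.144 across genes. Libraries of unlike number were at -0.417 to 0.168, the highest being WT replicate 3 with MED13cTg replicate 2. Whether the numbers mark pairs is thus not settled, and a fit with the replicate number as a block was also made. It changed no call of a receptor, and the 2 genes lower in EWAT became 0.

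The fits were also tested on simulated data in which 200 genes differed by 1.5 log2 units. They recovered 159 of 200 in ventricles among 12373 genes, 170 in EWAT among 13472 and 173 in the interaction among 11561, with 7, 5 and 21 calls of unchanged genes. All simulated libraries were given the spread of the WT libraries, and changes were placed only in genes of higher level. The real MED13cTg EWAT libraries varied far more. The EWAT and interaction figures thus do not give the power of the real comparisons. The alternatives were a pseudocount of 0.1 FPKM, no filter and a filter at 5 FPKM, median-of-ratios and quantile scaling, array weights, no trend, the replicate block and each library left out in turn. A covariate for the ventricle library split and a fit without MED13cTg EWAT replicates 1 and 2 were added after seeing the data.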

Additional observations from a re-analysis of the deposited data

How the results depend on the processing

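No receptor passed the adjusted threshold under any alternative run for either tissue or for the interaction. The numbers of receptors below 1 FPKM were 9 to 12 in ventricles and 7 to 14 in EWAT over all alternatives. FPKM without counts gives no interval for low values, and the wide spread of MED13cTg EWAT libraries limits what that comparison could detect. No receptor had several entries to sum. The estimate of array weights stopped before it converged in some fits, so those values are approximate. The cause of the changes below was not tested. Log2 differences are MED13cTg minus WT.

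Genes called. In ventricles the 3 higher and 4 lower genes became 7 and 8 with array weights, and the lower ones 1 with a filter at 5 FPKM, with no filter and with the replicate block, whose numbers did not pair ventricle libraries (correlations 0.0855, -0.192 and 0.14). Leaving out 1 library gave 3 to 6 higher and 0 to 4 lower, lowest without MED13cTg replicate 2. In EWAT the 2 lower genes became 0 with array weights, with no filter and with the replicate block, and 17 genes were higher with MED13cTg replicates 1 and 2 both left out. Leaving out 1 library gave 0 to 2 higher and 0 to 4 lower, with 0 lower without any 1 of the 3 MED13cTg libraries. The interaction had 11 higher and 16 lower genes with array weights, and 2 and 6 without both MED13cTg EWAT libraries. Leaving out 1 library gave 0 to 143 higher and 3 to 500 lower, highest without MED13cTg EWAT replicate 3.

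Median difference of receptors. In ventricles it moved from -0.022 to -0.095 with array weights, -0.11 with the filter at 5 FPKM, 0.032 with no filter, and -0.13 to -0.061 with 1 library left out. In EWAT it ran from -0.32 (without MED13cTg replicate 2) to 0.32.

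Receptors that turned direction in ventricles. With array weights Rarg was at -0.0063, Pparg at -0.031 and Nr1h2 at 0.12. With the library split as a covariate Rara was at -0.040, Rarg at -0.025, Pparg at -0.071, Rora at 0.21, Nr2c2 at 0.17, Nr2f6 at -0.21 and Nr3c2 at 0.14. Median-of-ratios scaling gave Nr1h2 0.0077 and Nr2c2 0.012, and quantile normalization gave Nr1h2 0.036. With 1 library left out the ranges were -0.35 to 0.035 for Nr0b2, -0.065 to 0.10 for Nr1h2, -0.045 to 0.30 for Nr1h3, -0.19 to 0.23 for Nr2c2, -0.14 to 0.29 for Nr2f6, -0.29 to 0.14 for Nr3c2, -0.19 to 0.28 for Pparg, -0.078 to 0.24 for Rara, -0.095 to 0.14 for Rarg and -0.90 to 0.089 for Rora.

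Receptors that turned direction in EWAT. With array weights Rarg was at 0.13, Pparg at 0.55, Nr1h3 at 0.24, Vdr at -0.056, Hnf4a at 0.076, Rxrb at 0.071, Nr2f1 at 0.29 and Nr2f2 at 0.14. Without MED13cTg replicates 1 and 2 Rara was at -0.15, Pparg at 0.041, Rxra at -0.16, Nr2f2 at 0.11 and Esrrg at 0.031. Median-of-ratios scaling gave Rxrb 0.064 and Nr2f1 0.013, the pseudocount of 0.1 FPKM gave Rxrg -0.0067, and quantile normalization gave Rara -0.027. With 1 library left out the ranges were -0.35 to 0.80 for Esr1, -1.05 to 0.70 for Nr1h3, -0.69 to 0.53 for Nr2f1, -0.54 to 0.22 for Nr2f2, -0.57 to 0.92 for Nr3c1, -0.21 to 1.75 for Nr6a1, -0.32 to 0.69 for Ppara, -1.60 to 1.29 for Pparg, -0.035 to 0.24 for Rara, -0.94 to 0.41 for Rarg, -0.52 to 0.71 for Rxra, -0.15 to 0.11 for Rxrb and -0.72 to 1.11 for Rxrg. Nr1h3, Nr2f2, Nr6a1, Pparg and Rarg turned without MED13cTg replicate 1, and Esr1, Nr3c1, Ppara, Rara, Rxra and Rxrg without replicate 2. Nr2f6, the receptor of smallest p in EWAT and in the interaction, kept its negative difference in every alternative run.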
